A study of Mus musculus with 20 samples.

Results

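Alpha-arrestins are adaptor proteins of the cell membrane and of endosomes. The family in these mouse livers comprised Arrdc1, Arrdc2, Arrdc3, Arrdc4 and Txnip, which were chosen by family name and by being listed in the count data. They are 5 of the 13319 gene symbols listed. A symbol was listed where it reached at least 20 counts in 1 or more libraries, and all 5 genes passed the filter on low counts. Their own counts lay between 31 and 2948 per library. Arrdc5, the remaining annotated mouse family member, is not analysed here. The family was taken up with the low Arrdc3 of the glucagon libraries against control already known. Every Arrdc3 difference that uses the glucagon libraries is therefore given as a description with no test. Arrdc3 tests against control reuse the control libraries of that known difference, so their p-values are not free of the choice.

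RNA was sequenced from the livers of 20 male mice fed a western diet, each library from 1 mouse, after 16 days of daily treatment. The groups of 4 mice received the glucagon/T3 hybrid, glucagon together with T3 (the combination), T3 alone, glucagon alone, or control treatment. The libraries coded Cp in the labels were taken as the hybrid, a single molecule joining the 2 hormones, by elimination. T3 (triiodothyronine) is the active thyroid hormone, and glucagon is the islet hormone that drives glucose release by the liver. The sources used here do not give doses, the control vehicle, mouse strain, age or when livers were taken, so it is not known whether the hybrid and the combination carried matched doses.

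Alpha-arrestins share an arrestin fold with the visual and beta-arrestins. Most carry PPxY motifs in their tails, which bind the WW domains of NEDD4-family ubiquitin ligases and so bring a ligase to a receptor or transporter that is then internalised or degraded. Txnip also binds thioredoxin and promotes the endocytosis of glucose transporters. Txnip and Arrdc4 are textbook targets of the glucose-sensing factors MondoA and ChREBP. Mice that lack Arrdc3 spend more energy.

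Upstream sequence is shown for Arrdc3, the member with the widest range of levels, and for Txnip and Arrdc4, the known glucose-responsive members. Each line gives the 250 bases before the RefSeq start site, 5′ to 3′ on the gene's own strand, from RefSeq on GRCm38.p6. Capitals mark matches, on either strand, to CCAAT (the NF-Y box), CACGTG (the E-box palindrome), GTAAACA (a FOXO motif) or, as described below, a pair of CACGNG boxes. The Arrdc3 window is chr13:80883134-80883383 (plus strand), that of Arrdc4 is chr7:68749239-68749488 (minus strand) and that of Txnip is chr3:96557707-96557956 (plus strand).
Arrdc3: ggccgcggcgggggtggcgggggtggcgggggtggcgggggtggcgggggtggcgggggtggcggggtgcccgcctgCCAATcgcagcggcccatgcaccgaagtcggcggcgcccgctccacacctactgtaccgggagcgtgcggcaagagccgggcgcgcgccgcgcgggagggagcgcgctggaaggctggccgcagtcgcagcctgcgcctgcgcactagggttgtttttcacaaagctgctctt
Arrdc4: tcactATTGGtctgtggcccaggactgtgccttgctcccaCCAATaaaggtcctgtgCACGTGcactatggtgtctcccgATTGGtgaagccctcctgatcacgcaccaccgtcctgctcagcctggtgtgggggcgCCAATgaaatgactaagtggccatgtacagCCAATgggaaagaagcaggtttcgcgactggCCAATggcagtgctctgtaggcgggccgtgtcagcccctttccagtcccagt
Txnip: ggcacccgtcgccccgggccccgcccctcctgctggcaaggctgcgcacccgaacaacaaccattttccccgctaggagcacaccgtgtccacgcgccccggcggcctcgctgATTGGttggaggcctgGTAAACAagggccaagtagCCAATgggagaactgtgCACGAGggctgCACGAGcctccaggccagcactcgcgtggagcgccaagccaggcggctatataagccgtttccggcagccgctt

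The windows differed. Txnip held GTAAACA at -121 to -115 from its start site, CCAAT at -137 to -133 and at -102 to -98, and a pair of CACGNG boxes 5 bases apart at -85 to -69. Such a pair is the layout of the carbohydrate response element bound by ChREBP and MondoA. It was added to the search after the sequences had been seen, and 15 of 32851 promoter windows of that length (0.0457%) held it. Arrdc4 held CACGTG at -193 to -188, which 6.02% of windows hold, and 6 copies of CCAAT, a motif present in 33.9% of windows. GTAAACA was present in 3.17%.

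Arrdc3 held 1 CCAAT, at -173 to -169, in a window of 76.0% GC. The RefSeq table holds 3 start sites of Arrdc3, and the one at the annotated gene start was used. Arrdc2 held 3 copies of CCAAT and Arrdc1 held none of the motifs searched. None of the 5 windows held TGACGTCA or TGACG, the full and the shortened CREB site, or the thyroid hormone receptor's DR4 element. Those were present in 1.55%, 17.8% and 0.0152% of windows. A match is a description of letters, not a site of binding.

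**Figure D1:**
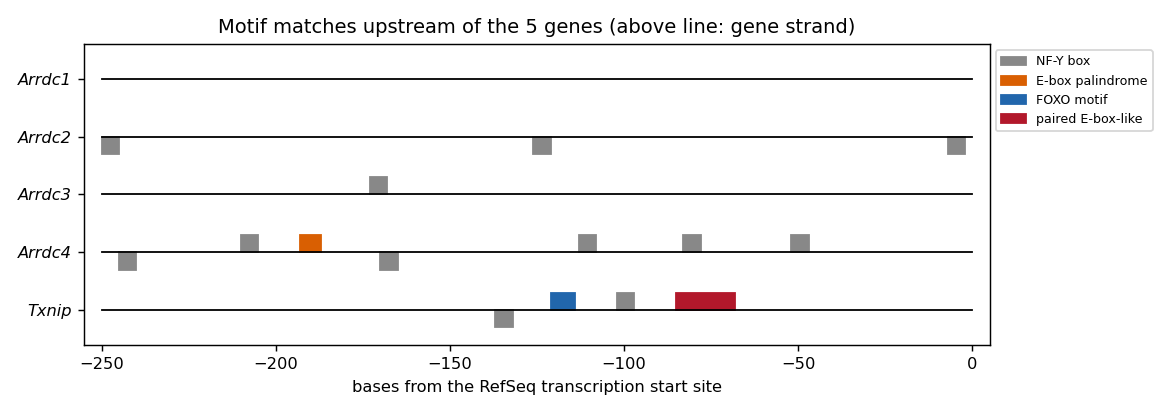
Motif matches in the 250 bases before each RefSeq start site, in bases from the start site on the x axis, with 1 line per gene and boxes above the line for the gene's strand. Txnip alone of the 5 carries the FOXO motif and the paired boxes, and Arrdc4 carries 6 NF-Y boxes.

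On GRCm38 (GENCODE M21) the genes lie apart. Arrdc1 (ENSMUSG00000026972.15) is at chr2:24925352-24935252 on the minus strand, Arrdc2 (ENSMUSG00000002910.11) at chr8:70835129-70839720 on the minus strand, and Arrdc3 (ENSMUSG00000074794.10) at chr13:80883384-80896042 on the plus strand. Arrdc4 (ENSMUSG00000042659.15) is at chr7:68736995-68749241 on the minus strand and Txnip (ENSMUSG00000038393.14) at chr3:96557957-96561883 on the plus strand. The exons of Txnip are overlapped by the antisense gene Gm15441, and since the strand setting of the counting is not given, reads from the pair cannot be told apart.

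Levels of genes are CPM, counts scaled to library size with TMM factors. Summed marker levels are CPM on raw library totals without TMM factors, so the 2 scales differ between groups. Library totals ran from 6091917 to 23195658 counts, with T3 shallowest at 6091917 to 7996156. The libraries of the hybrid, combination, glucagon and control groups shared sequencing lanes 1 to 4, 1 of each group to a lane, and all T3 libraries ran in lane 5. All 10 hepatocyte markers were detected. Their summed level was 98710 to 127800 CPM in hybrid, 110300 to 143300 in combination, 105700 to 132500 in T3, 140600 to 196600 in glucagon and 124200 to 216700 in control livers. Summed macrophage markers (11 of 12 listed) were 1205 to 1608 CPM in hybrid, 1136 to 1249 in combination, 1473 to 1862 in T3, 362 to 472 in glucagon and 517 to 1075 in control livers. Summed cholangiocyte markers (8 of 8) were 49.6 to 61.5 CPM in glucagon livers, against 84.3 to 200.2 in control livers. Skeletal muscle markers summed to 3689 CPM in glucagon 3 and 1211 CPM in control 2, against at most 853 CPM in the other 18 libraries, and control 2 also had the highest interferon-response sum, 2728 CPM. No listed marker was at 0 in all libraries. In bulk liver, fewer cells of a type and less RNA per cell cannot be told apart, and the part of these marker differences in the results was not tested.

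Per kilobase of exon, Txnip was the most abundant member in control livers at 23.6 CPM per kb, followed by Arrdc3 at 17.4, Arrdc2 at 8.85, Arrdc4 at 2.88 and Arrdc1 at 2.42. In glucagon livers Arrdc3 was the least abundant on this scale, at 0.847 CPM per kb. Without scaling by length both orders change. In control livers Arrdc3 (109 CPM) was above Txnip (73.8), and in glucagon livers Arrdc1 (5.01) was below Arrdc3 (5.31). The per-kilobase scale assumes reads along the whole transcript, and the coverage the library kit gives was not tested.

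Arrdc3 separated the groups most. Its level was 27.3, 16.2, 18.8 and 16.2 CPM in hybrid livers, 97.2, 107, 146 and 103 CPM in combination livers, and 50.4, 50.7, 55.4 and 62.6 CPM in T3 livers. It was 5.79, 3.36, 8.05 and 4.03 CPM in glucagon livers, and 158, 52.2, 84.9 and 140.4 CPM in control livers. Glucagon livers were lowest, then hybrid, then T3, with no overlap between those neighbours. How many of all genes separate in this way was not counted. Control livers overlapped both T3 and combination livers and varied 3.02-fold among themselves.

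Mean Arrdc3 was 19.6 ± 5.25 CPM in hybrid, 113 ± 22.1 in combination, 54.8 ± 5.71 in T3, 5.31 ± 2.09 in glucagon and 109 ± 48.9 CPM in control livers (SD, n = 4 each). With glucagon alone it was 0.0488 of the control mean, a log2 difference of -4.35 ± 0.33 (SE), given as a description. With T3 added to glucagon the level was 21.4 times that of glucagon alone (log2 4.41 ± 0.33), again a description.

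**Figure D2:**
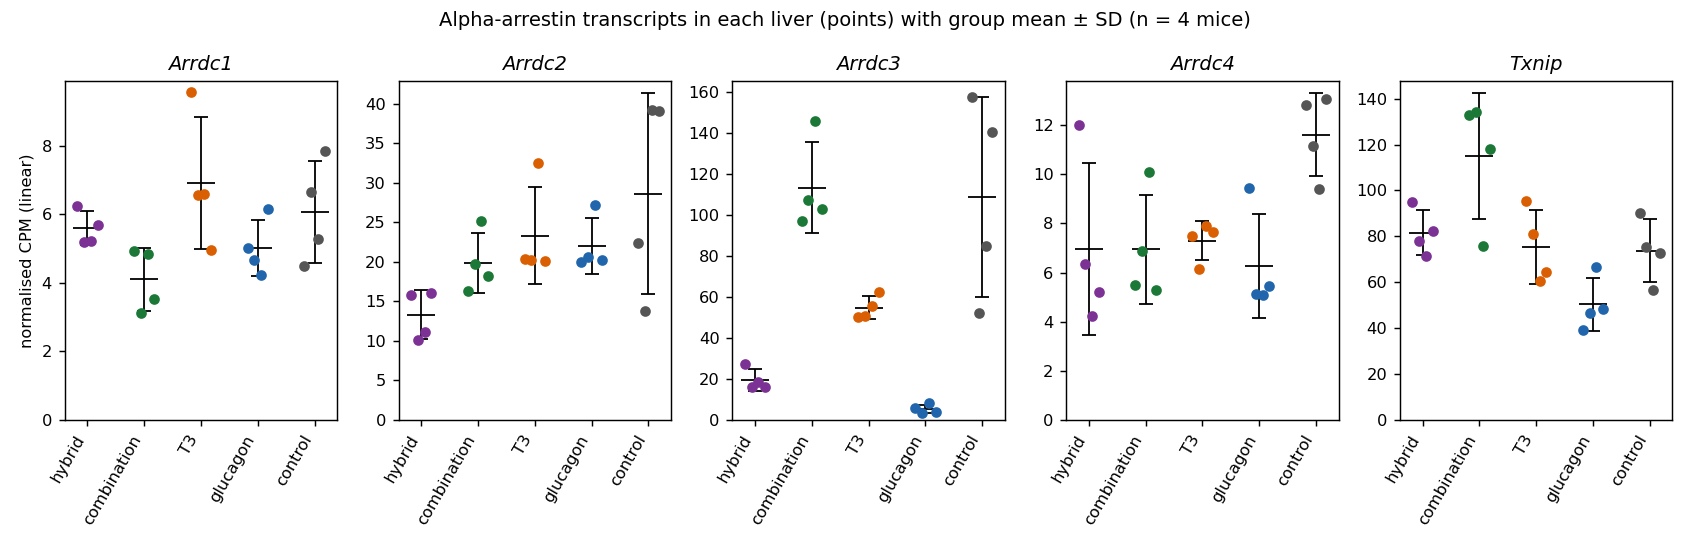
Normalised CPM on a linear axis of each liver (points), with the group mean and SD (bars, n = 4 mice), for the 5 genes in hybrid, combination, T3, glucagon and control livers. Arrdc3 in hybrid (16.2 to 27.3 CPM) and glucagon livers (3.36 to 8.05) lies below every control liver (52.2 to 158).

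The hybrid was set against the combination to ask whether joining the 2 hormones in 1 molecule gives the same liver transcripts as giving both. In hybrid livers Arrdc3 fell by 2.53 ± 0.30 on the log2 scale relative to combination livers (edgeR quasi-likelihood test, adjusted p = 0.000765), with means of 19.6 and 113 CPM. Within lanes 1 to 4 the difference was -1.83, -2.72, -2.95 and -2.65, so it was lower in 4 of 4 lanes. Arrdc3 had the smallest p of the 12907 genes tested. The members were chosen with earlier results of these data known, so this p and rank may not be free of that choice. Across all genes 0.031% were called lower and 0.0% higher (0 genes, against 404 higher at an unadjusted p under 0.05), a total of 4 genes called, Arrdc3 among them. By DESeq2, 28 genes were called. By edgeR, 12 were called without control 2, 2 without hybrid 2, and 1 without hybrid 3 or hybrid 4.

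The other members were not called in hybrid against combination livers. The log2 change was -0.50 for Txnip (95% interval -0.92 to -0.07, adjusted p = 0.672), -0.58 for Arrdc2 (-1.15 to -0.01, adjusted p = 0.717), 0.44 for Arrdc1 (-0.02 to 0.91, adjusted p = 0.730) and 0.02 for Arrdc4 (-0.58 to 0.61, adjusted p = 0.994), all from edgeR. Within lanes 1 to 4, Txnip was lower in 4 of 4 lanes (-0.49, -0.78, -0.09 and -0.52) and Arrdc2 in 4 of 4 (-0.04, -0.96, -1.16 and -0.18). Arrdc1 was higher in 4 of 4 lanes (0.34, 0.71, 0.11 and 0.67), and Arrdc4 was of mixed sign. How many of all genes keep the same sign over the 4 lanes was not counted, so these lane values are descriptions. Of the 5 members, 3 had an unadjusted p under 0.05, as had 404 genes higher and 487 lower of all 12907. At 4 mice a group, changes inside these intervals could not be settled.

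Against control livers the hybrid lowered Arrdc3 and Arrdc2, which are 2 of the 5 members, while 13.2% of all genes were called lower and 11.2% higher. Arrdc3 fell by 2.47 ± 0.30 on the log2 scale (edgeR, adjusted p = 8.73e-06). Within lanes it was -2.52, -1.68, -2.17 and -3.10. The control livers of this test are those of the Arrdc3 difference known when the family was chosen.

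Arrdc2, an alpha-arrestin whose cargo is less well described, had 15.8, 10.1, 11.2 and 16.1 CPM in hybrid livers, 16.3, 19.8, 25.1 and 18.2 in combination livers, and 20.4, 20.2, 32.6 and 20.1 in T3 livers. It had 19.9, 20.6, 27.2 and 20.2 CPM in glucagon livers and 22.4, 13.8, 39.2 and 39.1 in control livers. All hybrid livers lay below all combination, T3 and glucagon livers, but they overlapped the controls through control 2. Arrdc2 fell by 1.10 ± 0.27 in hybrid against control livers (edgeR, adjusted p = 0.00596). In a fit of the hybrid and control groups alone the change was -1.08 with adjusted p = 0.0662 (edgeR). Arrdc2 was not called against control in combination (-0.52 ± 0.27), T3 (-0.29 ± 0.27) or glucagon livers (-0.37 ± 0.27), with adjusted p = 0.181, 0.488 and 0.343 (edgeR). Without control 2 the combination change was called, at -0.75 (adjusted p = 0.0250, edgeR).

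Relative to T3 livers, hybrid livers were lower for Arrdc3, by a log2 change of -1.48 ± 0.29 (edgeR, adjusted p = 0.00485), the single member called in that comparison against 2.67% of all genes called lower and 3.69% higher. As all T3 libraries ran in lane 5, treatment and lane cannot be told apart here. Arrdc2 differed by -0.81 ± 0.28 and was not called (edgeR, adjusted p = 0.0823).

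T3 alone against control gave 1 call among the 5 members, lower Arrdc3, beside 10.6% of all genes lower and 7.31% higher. The change was -0.99 ± 0.29 (edgeR, adjusted p = 0.0231), and with T3 in lane 5 and controls in lanes 1 to 4, treatment and lane cannot be told apart. This test too reuses the control livers of the Arrdc3 difference known when the family was chosen. T3 livers ranged from 50.4 to 62.6 CPM and control livers from 52.2 to 158, so the groups overlapped. The call ended in a fit of these groups alone (-0.98, adjusted p = 0.101) and, by edgeR, without control 1 (-0.75, adjusted p = 0.0967), control 4 (-0.85, adjusted p = 0.0595), T3 1 (-0.95, adjusted p = 0.0625), T3 2 (-0.95, adjusted p = 0.0626) or T3 3 (-0.99, adjusted p = 0.0556).

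Arrdc3 was not called in combination against control livers, with a change of 0.06 ± 0.28 (95% interval -0.53 to 0.65, edgeR adjusted p = 0.909), which does not show equality. Within lanes the difference was -0.70, 1.04, 0.78 and -0.45, of mixed sign. Against T3 livers, combination livers were 1.05 ± 0.29 higher in Arrdc3 but were not called (edgeR, adjusted p = 0.0825), although the libraries did not overlap, and 0.256% of all genes were called lower and 1.13% higher. No member was called there by edgeR. Of the 5, 3 had an unadjusted p under 0.05, as had 890 genes higher and 716 lower of all 12907. DESeq2 called 1 member, Arrdc3, with adjusted p = 0.0200.

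**Figure D3:**
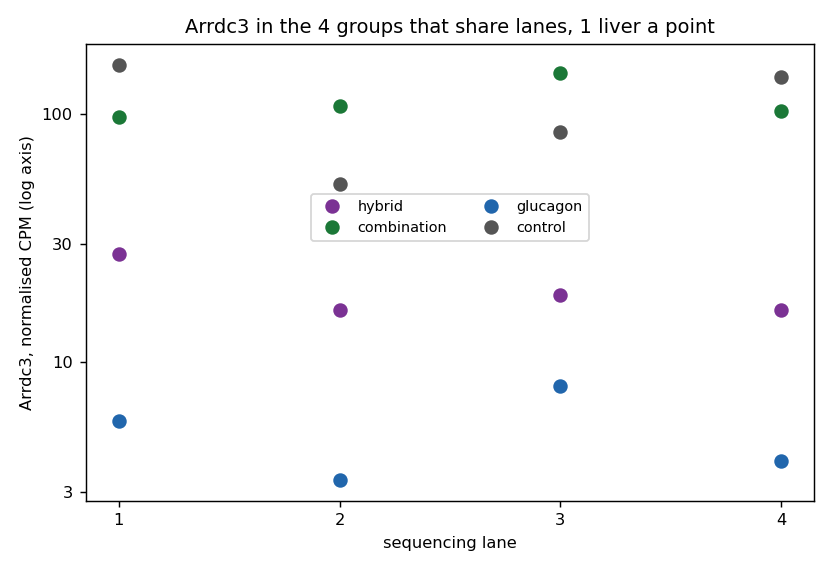
Arrdc3 in each liver of the 4 groups that share sequencing lanes, in normalised CPM on a log axis against lane. In every lane glucagon is lowest and hybrid second lowest, while combination is above control in lanes 2 and 3 and below it in lanes 1 and 4.

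Txnip, the thioredoxin-binding member, changed most between combination and glucagon livers. Its level was 94.8, 77.9, 71.3 and 82.5 CPM in hybrid livers, 133, 134, 75.6 and 118 in combination livers, and 95.3, 81.0, 60.4 and 64.4 in T3 livers. It was 39.3, 46.8, 66.8 and 48.5 CPM in glucagon livers and 90.2, 75.4, 56.8 and 72.7 in control livers. The livers of combination 1, 2 and 4 exceeded all others, and combination 3 lay inside the control range. Glucagon livers were the lowest apart from glucagon 3.

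Txnip rose in combination livers relative to glucagon livers, with means of 115 ± 27.4 and 50.3 ± 11.7 CPM and a log2 change of 1.19 ± 0.21 (edgeR, adjusted p = 0.000281). It was the 1 of 4 tested members called, against 12.4% of all genes called higher and 10.2% lower. The within-lane differences were 1.76, 1.52, 0.18 and 1.28. The call held in all 27 alternative fits run, with log2 changes from 1.08 to 1.35.

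Txnip also rose in hybrid livers relative to glucagon livers, by 0.70 ± 0.20 (edgeR, adjusted p = 0.0161), as 1 of 4 tested members, where 13.6% of all genes were called higher and 11.7% lower. That call ended by edgeR without glucagon 1 (0.59, adjusted p = 0.0623) or hybrid 1 (0.62, adjusted p = 0.0512). Arrdc3 was 1.88 ± 0.31 higher in hybrid than in glucagon livers, given as a description. Arrdc2 was lower in hybrid than in glucagon livers by a log2 change of -0.73 ± 0.27, not called (edgeR, adjusted p = 0.0558). With the replicate block over the 16 libraries of lanes 1 to 4 it was -0.72 with adjusted p = 0.0525, not called. With the block over all 20 libraries, where T3 numbers mark no lane, it was -0.71 with adjusted p = 0.0366 (edgeR).

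Against control livers Txnip rose in combination livers, 1 of the 5 members called, with 9.23% of all genes called higher and 10.9% lower. The change was 0.64 ± 0.20 (edgeR, adjusted p = 0.0303) and was positive in every lane at 0.56, 0.83, 0.41 and 0.70. The call is near its threshold. It ended with the lane as a replicate block over the 16 libraries of lanes 1 to 4 (0.64, adjusted p = 0.0529), with these groups alone (0.64, adjusted p = 0.118) and, by edgeR, without control 3 (0.52, adjusted p = 0.0733), control 4 (0.62, adjusted p = 0.0592), combination 1 (0.57, adjusted p = 0.0942), combination 2 (0.56, adjusted p = 0.0914) or combination 4 (0.64, adjusted p = 0.0586).

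In glucagon livers Txnip was -0.55 ± 0.20 from control, which was not called (edgeR, adjusted p = 0.0591). It was called without glucagon 3 (-0.72, adjusted p = 0.0246), without control 3 (-0.66, adjusted p = 0.0231) and without combination 3 (-0.55, adjusted p = 0.0399), and also without both control 2 and glucagon 3 (-0.71, adjusted p = 0.0366). Changes against control were small for T3 (0.03 ± 0.20, adjusted p = 0.940) and the hybrid (0.15 ± 0.20, adjusted p = 0.646), all by edgeR.

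The departure from additivity is the change in the combination minus the sum of the glucagon and T3 changes, on the log2 scale. For Txnip it was 1.17 ± 0.29 (edgeR, adjusted p = 0.0241), the single call among 4 tested members beside 1.6% of all genes called above 0 and 2.14% below. The Txnip call ended with the 4 groups alone (1.16, adjusted p = 0.0515) and without glucagon 1 (1.06), 2 (1.12) or 4 (1.14), T3 3 (1.06) or 4 (1.10), or combination 1 (1.07), 2 (1.07) or 4 (1.14), at adjusted p of 0.0541 to 0.0674 (edgeR). For Arrdc3 the departure was 5.40 ± 0.44, a description. Because T3 alone was sequenced in its own lane, lane cannot be told apart from this quantity either.

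**Figure D4:**
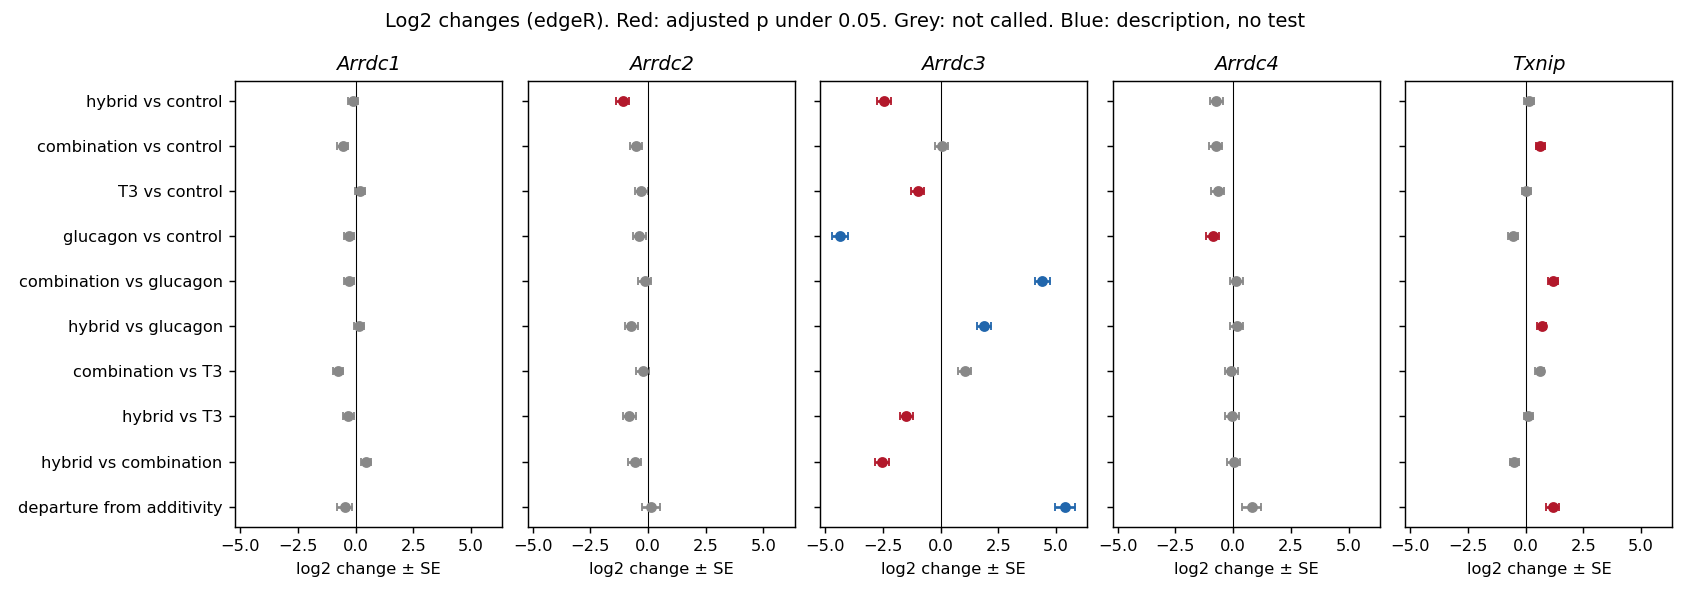
Log2 change with SE (edgeR) of each gene in each comparison, red where called at adjusted p under 0.05, grey where not, and blue for Arrdc3 differences given as a description. Arrdc3 ranges from -4.35 to 5.40 over the 10 comparisons, while Arrdc1 and Arrdc4 stay between -0.88 and 0.81.

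Arrdc4, which restrains glucose uptake, had 12.0, 6.35, 4.24 and 5.23 CPM in hybrid livers, 5.51, 6.86, 10.1 and 5.29 in combination livers, and 7.48, 6.16, 7.90 and 7.67 in T3 livers. It had 9.43, 5.11, 5.10 and 5.44 CPM in glucagon livers and 12.8, 11.2, 9.41 and 13.1 in control livers. Each treatment mean lay below the control mean. T3 livers did not overlap the controls, while 1 liver of the hybrid, combination and glucagon groups each reached the control range. With T3 in lane 5 and controls in lanes 1 to 4, treatment and lane cannot be told apart. How many of all genes separate T3 from control livers was not counted.

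Arrdc4 fell in glucagon livers by 0.88 ± 0.28 on the log2 scale (edgeR, adjusted p = 0.0320), with means of 6.27 ± 2.11 and 11.6 ± 1.70 CPM in glucagon and control livers. It was the 1 of 4 tested members called, where 11.9% of all genes were called lower and 9.23% higher. It was lower in all 4 lanes, by -0.44, -1.10, -0.86 and -1.24. The call ended with these groups alone (-0.86, adjusted p = 0.0655), without control 2 and glucagon 3 (-0.81, adjusted p = 0.107), and, by edgeR, without control 1 (-0.82, adjusted p = 0.0673), control 4 (-0.82, adjusted p = 0.0737), glucagon 2 (-0.79, adjusted p = 0.102), glucagon 3 (-0.79, adjusted p = 0.0925) or glucagon 4 (-0.82, adjusted p = 0.0917).

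The other treatments gave Arrdc4 changes of similar size that were not called, -0.73 ± 0.28 for the hybrid, -0.74 ± 0.28 for the combination and -0.67 ± 0.29 for T3 (edgeR, adjusted p = 0.0675, 0.0699 and 0.113). With the replicate block over the 16 libraries of lanes 1 to 4 the hybrid change was -0.80 with adjusted p = 0.0661, not called. With the block over all 20 libraries, where T3 numbers mark no lane, it was -0.79 with adjusted p = 0.0461, and without hybrid 1 it was -1.13 with adjusted p = 0.00451 (edgeR). The combination change was called without control 3 (-0.84, adjusted p = 0.0479), combination 3 (-0.99, adjusted p = 0.0339) or hybrid 1 (-0.74, adjusted p = 0.0315). In the 5 comparisons between treated groups, Arrdc4 changes ran from -0.07 to 0.16, with standard errors of 0.29.

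Arrdc1, which recruits TSG101 to bud vesicles from the plasma membrane, was called in no comparison. It had 6.25, 5.20, 5.23 and 5.69 CPM in hybrid livers, 4.92, 3.11, 4.85 and 3.53 in combination livers, and 9.57, 6.55, 6.61 and 4.95 in T3 livers. It had 5.01, 4.66, 4.24 and 6.14 CPM in glucagon livers and 4.49, 6.66, 5.29 and 7.84 in control livers. Groups next to each other in the order of their means all overlapped. Combination livers lay below all T3 and all hybrid livers, but how many of all genes separate in this way was not counted. The most negative change of Arrdc1 was -0.75 ± 0.23 in combination against T3 livers (edgeR, adjusted p = 0.127), where treatment and lane cannot be told apart. Combination against control was -0.56 ± 0.22 (edgeR, adjusted p = 0.0813) and was called without control 1 (-0.69, adjusted p = 0.0379).

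Pairs of members differed in how closely they tracked each other. Across the 20 libraries the Pearson r of log2 CPM was 0.64 between Arrdc3 and Txnip, 0.48 between Arrdc3 and Arrdc4, 0.29 between Arrdc2 and Arrdc3, and -0.035 between Arrdc4 and Txnip. After group means were removed these became 0.12, 0.48, 0.53 and -0.17. The libraries share 5 treatments and differ in depth, so these values are descriptions.

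**Figure D5:**
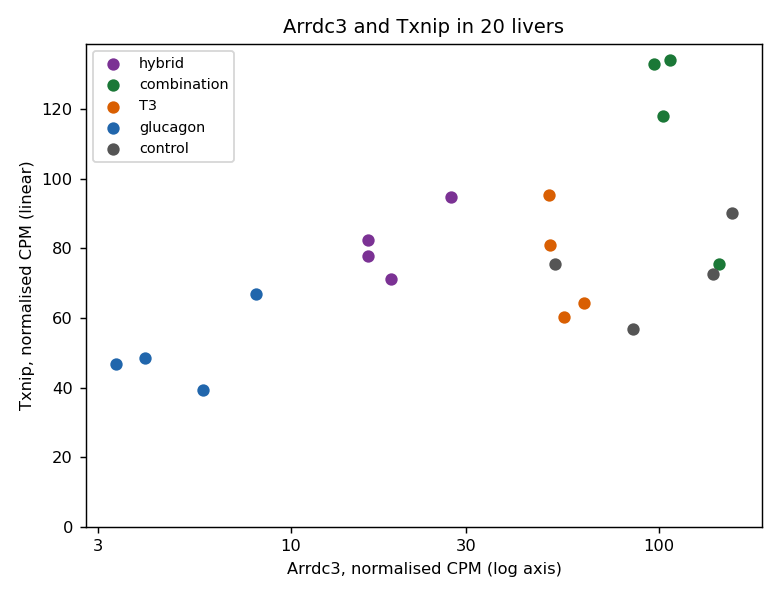
Arrdc3 (x, normalised CPM, log axis) against Txnip (y, normalised CPM, linear axis), 1 point per liver in 5 groups. Glucagon livers have the lowest values of Arrdc3 (3.36 to 8.05 CPM), and 3 of the 4 combination livers have Txnip at 118 CPM or more.

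Genes most like each member were taken by r over the same 20 libraries, among the 5310 genes averaging 20 CPM or more. For Arrdc3 they were Zfhx4 (0.90), Kank1 (0.89) and Rad51l3 (0.89), and the most opposite were BC057022 and Tsc22d2 (both -0.89). Kank1 averaged 63.5 CPM in hybrid, 96.1 in combination, 101 in T3, 16.9 in glucagon and 85.3 in control livers. Tsc22d2 averaged 45.7, 34.7, 30.4, 142 and 32.4 CPM in the hybrid, combination, T3, glucagon and control groups. For Txnip they were Exph5 (0.82), Gpr107 (0.80) and Cyp4a14 (0.79), a fatty acid omega-hydroxylase, and the most opposite were Per1 (-0.85), a circadian repressor, and Tob2 (-0.82). Cyp4a14 averaged 1458 CPM in hybrid, 1435 in combination, 610 in T3, 134 in glucagon and 325 in control livers, and Per1 averaged 27.4, 17.8, 35.2, 154 and 56.8 CPM in the same order. For Arrdc2 the genes were Mast3 (0.86), Dock6 (0.84) and Fahd2a (0.84), for Arrdc4 BC004004 (0.83), Vwa5a (0.80) and Orc3 (0.78), and for Arrdc1 Add1, Tmem176a and H2-Ab1 (all 0.72).

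Partners and regulators were described from 7 gene lists, each by how many genes were called against control and by its median log2 change beside the median of all genes. The share of all genes called higher and lower was 11.2% and 13.2% for the hybrid, 9.23% and 10.9% for the combination, 7.31% and 10.6% for T3, and 9.23% and 11.9% for glucagon. The median over all genes was -0.05 for the hybrid, -0.07 for the combination, -0.05 for T3 and -0.09 for glucagon. In the T3 counts, treatment and lane cannot be told apart. Of 10 tested NEDD4-family ligases and adaptors, 1 rose and 0 fell in glucagon livers (list median -0.03), a share near the 9.23% of all genes called higher. The gene was Nedd4l, a ligase known for ion channel turnover, at 247 ± 15.3 CPM in glucagon livers and 74.4 ± 3.42 in control livers, a change of 1.73 ± 0.15 (edgeR, adjusted p = 5.9e-08). In combination livers its log2 change from glucagon alone was -1.47 ± 0.15 (edgeR, adjusted p = 6.23e-07). Ndfip1, an adaptor that activates these ligases, fell in hybrid livers by 0.83 ± 0.20 and in combination livers by 0.66 ± 0.20 (edgeR, adjusted p = 0.00536 and 0.0246). The hybrid lowered 2 ligase-list genes (list median -0.14, 13.2% of all genes lower), the combination 1 (-0.20, 10.9% lower) and T3 1 (-0.33, 10.6% lower). The T3 gene was Ndfip2 at -0.50 ± 0.16 (edgeR, adjusted p = 0.0392).

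Cargo and sorting partners (15 tested) were called higher and lower in 3 and 3 cases in hybrid, 2 and 4 in combination, 3 and 2 in T3, and 3 and 0 in glucagon livers. The list medians were -0.05 in hybrid, 0.03 in combination, -0.24 in T3 and 0.10 in glucagon livers. Over all genes the shares higher and lower were 11.2% and 13.2% for the hybrid, 9.23% and 10.9% for the combination, 7.31% and 10.6% for T3 and 9.23% and 11.9% for glucagon. Slc2a1, the basal glucose transporter that Txnip internalises, rose in all 4: by 1.16 ± 0.14 in hybrid, 1.03 ± 0.14 in combination, 0.80 ± 0.14 in T3 and 1.96 ± 0.14 in glucagon livers (edgeR, adjusted p of 6.42e-09 to 0.000723). Slc2a2, the main hepatocyte glucose transporter, fell by 2.00 ± 0.23 in hybrid, 1.48 ± 0.23 in combination and 1.32 ± 0.23 in T3 livers, and was -0.57 ± 0.23 in glucagon livers (edgeR, adjusted p = 0.0798).

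In the thioredoxin system (12 tested; list medians -0.12 in hybrid, -0.03 in combination, 0.03 in T3 and 0.05 in glucagon livers), 2 genes rose in glucagon livers, where 9.23% of all genes did, among them Map3k5, the stress kinase that thioredoxin inhibits, by 0.98 ± 0.21 (edgeR, adjusted p = 0.00199). T3 lowered Txnl1 by 0.85 ± 0.19 and Txnrd1, thioredoxin reductase, by 0.56 ± 0.17 (edgeR, adjusted p = 0.00586 and 0.0245), with 1 other gene higher, and the combination raised 1 gene. The hybrid gave 0 calls by edgeR, 3 genes at an unadjusted p under 0.05 and 1 call by DESeq2. Among arrestin-fold relatives (6 tested), the list medians were 0.08 in hybrid, -0.04 in combination, 0.05 in T3 and -0.23 in glucagon livers. In this list 1 gene fell with glucagon, beside 11.9% of all genes, and 1 rose with T3, beside 7.31%. Dscr3, a retriever subunit, fell by 0.80 ± 0.18 in glucagon livers and Rgp1 rose by 0.65 ± 0.19 in T3 livers (edgeR, adjusted p = 0.00321 and 0.0215). The combination and hybrid each gave 0 calls by edgeR and 0 by DESeq2, with 1 gene and 0 genes at an unadjusted p under 0.05. Arrb2, beta-arrestin 2, was 0.49 ± 0.17 higher in combination than in glucagon livers (edgeR, adjusted p = 0.0483).

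Among Mondo factors and carbohydrate-response targets (19 tested), 5 rose and 0 fell in glucagon livers (median 0.32; 9.23% and 11.9% of all genes), while 3 rose and 2 fell in hybrid (-0.29; 11.2% and 13.2%), 2 and 1 in combination (0.19; 9.23% and 10.9%), and 2 and 5 in T3 livers (-0.41; 7.31% and 10.6%). Mlxip, which encodes MondoA, rose in all 4, by 0.61 ± 0.13 in hybrid, 0.65 ± 0.13 in combination, 0.53 ± 0.13 in T3 and 1.02 ± 0.13 in glucagon livers (edgeR, adjusted p of 1.54e-05 to 0.0109). G6pc, the glucose-6-phosphatase catalytic subunit, rose by 1.12 ± 0.22 in hybrid and 1.82 ± 0.23 in glucagon livers (edgeR, adjusted p = 0.00112 and 8.13e-06).

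Of 14 FOXO and insulin-repressed genes, 6 rose and 2 fell with glucagon (median 0.26), beside 9.23% and 11.9% of all genes. The counts were 2 and 2 with the hybrid (0.01; 11.2% and 13.2% of all genes), 2 and 1 with the combination (-0.003; 9.23% and 10.9%), and 0 and 1 with T3 (-0.15; 7.31% and 10.6%). Irs2, an insulin receptor substrate, rose by 2.64 ± 0.45 in glucagon livers and Pck1, a gluconeogenic enzyme, by 1.77 ± 0.28 (edgeR, adjusted p = 0.000276 and 0.000147). In combination livers Pck1 was 1201 ± 358 CPM, against 5763 ± 674 CPM with glucagon alone. Of 14 glucocorticoid receptor and target genes, 8 rose and 1 fell with glucagon (median 0.89), beside 9.23% and 11.9% of all genes. The medians were below 0 in the other groups, with 2 higher and 2 lower with the hybrid (-0.15; 11.2% and 13.2% of all genes), 2 and 4 with the combination (-0.38; 9.23% and 10.9%), and 2 and 5 with T3 (-0.45; 7.31% and 10.6%). Tat, tyrosine aminotransferase, rose by 1.73 ± 0.22 and Dusp1, a MAP kinase phosphatase, by 2.50 ± 0.32 with glucagon (edgeR, adjusted p = 7.94e-06 and 9.81e-06). Tat fell by 1.07 ± 0.21 in combination and by 0.92 ± 0.21 in T3 livers (edgeR, adjusted p = 0.00142 and 0.00595), and was -0.29 ± 0.21 in hybrid livers (adjusted p = 0.341). Fkbp5, a chaperone of the glucocorticoid receptor, rose by 1.86 ± 0.26 in hybrid, 1.95 ± 0.26 in combination, 1.48 ± 0.26 in T3 and 0.95 ± 0.25 in glucagon livers (edgeR, adjusted p of 2.93e-05 to 0.0113). These lists overlap, and G6pc and Slc2a2 count in more than 1.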

How the data were processed

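The authors deposited raw read counts for each gene symbol. Per the submitters' processing notes, HTSeq and the mm10 build were used, with no version stated. Per the labels' protocols, a Qiagen kit gave the RNA and a Lexogen kit the libraries. No aligner, gene annotation or strand setting is given in the sources used here. Symbols were matched by name to GENCODE M21 on GRCm38, and promoter sequences come from RefSeq (GRCm38.p6).

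Counts were fitted with edgeR 4.0.16, with limma 3.58.1 loaded, under R 4.3.3. The filterByExpr step (minimum count 10, minimum total 15) kept 12907 genes and dropped 412. TMM factors and a quasi-likelihood fit of 5 group means over 20 libraries followed, with Benjamini-Hochberg adjustment over all tested genes within each of 10 contrasts and a threshold of 0.05. The biological coefficient of variation was 27.8% over all genes, 28.7% for Arrdc3 and 20.9% for Txnip. The fit was tested on simulated data. The CPM, SD and within-lane log2 values (prior count 2) were computed from the same counts.

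The members and gene lists were chosen with earlier results of these data known. All members were named, with the 3 genes of smallest p per list, the 3 genes of highest r per member and the 2 of lowest r for Arrdc3 and Txnip, leaving out predicted genes. Results of some genes that this rule names are left out here. In 16 libraries the replicate number marks the sequencing lane, per the labels. Same-lane libraries correlated, after removal of group means, at -0.318 to 0.462 (median 0.071, 24 pairs) and other pairs at -0.368 to 0.488 (median -0.0294, 72 pairs).

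Alternatives were RLE size factors, no filter on low counts, the compared groups alone, the replicate block, DESeq2 1.42.0, raw library totals for CPM, each library left out, and control 2 and glucagon 3 left out together. Protein sequences were not used here.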

Additional observations from a re-analysis of the deposited data

Results flagged for a closer look

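In groups of 4 livers, 25 gene and group combinations were checked for a library standing apart from the rest of its group (Dixon's test of the gap to the next library against the group's range), and chance gives about 1 in 20 such results. Arrdc2 stood at 27.2 CPM in glucagon 3, above the other glucagon livers at 19.9 to 20.6 CPM, and at 32.6 CPM in T3 3, above the other T3 livers at 20.1 to 20.4 CPM. Arrdc4 stood at 9.43 CPM in glucagon 1, against 5.10 to 5.44 CPM in the other glucagon livers. Glucagon 3 is also the library with the highest muscle marker sum, 3689 CPM on raw library totals. The part of that in its Arrdc2 level was not tested.

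The effect of glucagon on Txnip and Arrdc3 was flagged as differing between livers with and without T3. For Txnip the difference, on the log2 scale, was 1.17 ± 0.29 (edgeR, adjusted p = 0.0241), a call kept in 17 of 26 alternative fits. For Arrdc3 it was 5.40 ± 0.44, given with no test since the gene was taken up for its level in glucagon livers. Both use the T3 libraries, whose treatment and lane cannot be told apart.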

How the results depend on the processing

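Of 10 called changes, 4 were called under every alternative: Arrdc3 in hybrid against control, combination and T3 livers, and Txnip in combination against glucagon livers. The Arrdc3 change against control reuses control libraries that entered the choice of the family. Of 36 uncalled changes, 8 were called under some alternative. No called change reversed, and 23 fits of 10 uncalled results changed sign, at a size of at most 0.389. Fits of the compared groups alone use fewer libraries and their own estimate of spread. The cause of these changes was not tested.

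With the compared groups alone, Arrdc4 in glucagon against control was -0.86, Arrdc3 in T3 against control -0.98, Txnip in combination against control 0.64, Arrdc2 in hybrid against control -1.08 and the Txnip departure 1.16, all no longer called. Newly called there were Arrdc3 in combination against T3 (1.04), Arrdc2 in hybrid against glucagon (-0.72) and Arrdc2 in hybrid against T3 (-0.82). Genes called became 976 in glucagon against control (2732 before), 503 in T3 against control (2317), 918 in combination against control (2598), 1208 in hybrid against control (3144), 523 in combination against T3 (179), 16 in hybrid against combination (4) and 1562 in hybrid against T3 (821).

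Without control 2 and glucagon 3, Arrdc4 in glucagon against control was -0.81 and no longer called. Newly called were Txnip in glucagon against control (-0.71), Arrdc2 in combination against control (-0.76), Arrdc3 in combination against T3 (1.04) and Arrdc2 in hybrid against T3 (-0.82). The Arrdc3 departure was 5.89 and 16 genes were called in hybrid against combination. DESeq2 newly called Txnip in glucagon against control (-0.54), Arrdc4 in hybrid against control (-0.74), Arrdc3 in combination against T3 (1.05), Arrdc2 in hybrid against glucagon (-0.76) and Arrdc2 in hybrid against T3 (-0.82), and it called 339 genes in combination against T3 and 28 in hybrid against combination. RLE size factors newly called Arrdc2 in hybrid against glucagon (-0.76). On raw library totals the hybrid means were 6.35 CPM for Arrdc1 and 92.6 CPM for Txnip, against 5.60 and 81.6.

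With the replicate block over the 16 libraries of lanes 1 to 4, Txnip in combination against control was 0.64 (adjusted p = 0.0529, edgeR) and no longer called. With the block over all 20 libraries, Arrdc4 in hybrid against control was -0.79 and Arrdc2 in hybrid against glucagon was -0.71, both newly called, but over the 16 libraries they were -0.80 and -0.72 and not called (adjusted p = 0.0661 and 0.0525, edgeR). The block changed no other member's call.

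Leaving out 1 library gave log2 changes of -1.16 to -0.79 for Arrdc4 and -0.72 to -0.43 for Txnip in glucagon against control, -1.22 to -0.75 for Arrdc3 in T3 against control, and -0.69 to -0.42 for Arrdc1, -0.75 to -0.34 for Arrdc2, -0.99 to -0.63 for Arrdc4 and 0.52 to 0.79 for Txnip in combination against control. It gave -1.13 to -0.54 for Arrdc4 in hybrid against control, 0.89 to 1.12 for Arrdc3 in combination against T3, -0.83 to -0.61 for Arrdc2 and 0.59 to 0.86 for Txnip in hybrid against glucagon, -0.91 to -0.60 for Arrdc2 in hybrid against T3, and 1.04 to 1.32 for the Txnip departure. Genes called ran from 1528 to 3179 in T3 against control, 83 to 343 in combination against T3, 1 to 12 in hybrid against combination, 406 to 1452 in hybrid against T3 and 343 to 821 for the departure. Arrdc1 and Arrdc4 had the fewest counts, 31 to 138 and 47 to 240 per library, and how much depth limits them beside the spread between mice was not tested.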
